A study of Mus musculus with 23 samples.

Results

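The macrophage and myeloid identity genes are 46 mouse genes that mark the macrophage and monocyte lineage, picked by symbol and followed through all groups of the study. They comprise Fc receptors and their adaptors, C-type lectin receptors, inhibitory and other surface receptors, lysosomal proteins, subunits of the phagocyte NADPH oxidase, lineage transcription factors and a few cytoplasmic proteins. All 46 are among the 43068 genes listed in the crush libraries and 45 are among the 22880 genes listed in the iKO libraries. Clec7a, annotated in GENCODE as a polymorphic pseudogene, is not listed in the latter. Sciatic nerves (SNs) of mice were profiled by RNA sequencing in 2 experiments, an acute crush injury and an inducible Schwann cell mutation, and the purpose of the comparison was to set both side by side gene by gene.

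In the crush experiment, SNs of 2-month-old male C57BL/6J mice were taken 3 days post crush from the piece distal to the lesion (crushed, n = 4). The nerves on the other side of crushed animals (contralateral, n = 4) and nerves of surgery controls (uncrushed, n = 3) were the controls. In the other experiment, floxed Dicer or Dgcr8 alleles were deleted in adults by a tamoxifen-inducible Cre transgene that is active in myelinating Schwann cells, and nerves were taken 3 months post tamoxifen (Dicer iKO and Dgcr8 iKO, n = 3 each). These mice were of either sex and received tamoxifen at 8 to 10 weeks of age. The matching controls carried the floxed alleles without Cre and also received tamoxifen (n = 3 for each allele). Mutant animals were chosen for affected nerves, which limits what they say of all mutants. The deletion was in Schwann cells, and the transgene is not directed to macrophages. The 2 experiments differ in library kit by the labels (SMARTer pico input for crush, TruSeq with Ribo-Zero for iKO), and in age, time and sex of the mice, and these cannot be told apart from acute against chronic. All levels below, as normalized counts scaled to the library total (CPM), are therefore compared only within an experiment.

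Library totals were 6617684 to 12806018 counts in the crush experiment and 5594845 to 10143229 in the iKO experiment, and 3 counts, taken here as the smallest level above none, correspond to 0.234 to 0.453 CPM and 0.296 to 0.536 CPM. Summed over the whole gene, Dicer1 was at 81.0 to 82.8 CPM in Dicer iKO and 88.0 to 91.0 CPM in its controls (adjusted p = 0.356), and Dgcr8 at 39.3 to 53.7 CPM in Dgcr8 iKO and 34.9 to 41.9 CPM in its controls (adjusted p = 0.233). A sum over the gene does not check a deletion of part of it in 1 cell type. Averaged over the 45 genes listed in both experiments, log2(CPM + 1) was 4.09 in crushed 1 against 4.72 to 5.06 in the other crushed libraries. It was 4.04, 3.47 and 2.91 in the 3 Dicer controls, the widest range of any control group, and 5.05 in Dgcr8 iKO 2 against 5.55 and 5.99.

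Macrophages take up cell and myelin debris, and in the injured peripheral nerve they are recruited from blood and expand from resident cells. Their activating receptors signal through adaptors with an immunoreceptor tyrosine-based activation motif (ITAM), such as Tyrobp and Fcer1g, to the kinase Syk. Inhibitory receptors oppose this, and what is engulfed is digested in lysosomes and met with oxidants made by the NADPH oxidase. In whole nerve, more macrophages, more RNA per macrophage and RNA from other cells cannot be told apart.

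The levels of nearly all of these genes were higher after crush and in both mutants. Against uncrushed nerves, 43 of 46 genes rose, 1 fell and 2 changed by less than the 2-fold limit, and their median log2 fold change was 2.46 (-0.03 over all genes). Of all 17479 genes tested, 15.3% rose and 21.1% fell by the same rule (at least 2-fold and adjusted p of at most 0.05, quasi-likelihood test of edgeR, p adjusted by Benjamini-Hochberg, used throughout). Against contralateral nerves, 42 of 45 tested rose and 1 fell, with a median of 2.81, where 14.6% of all genes rose and 13.6% fell. The level in every crushed library lay above every uncrushed library for 45 of 46 genes and above every contralateral library for 42 of 45, compared with 37.2% and 35.5% of all genes.

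In Dicer iKO, 41 of 44 tested genes rose and 0 fell, with a median of 2.43, where 7.37% of 13045 genes rose and 1.64% fell. In Dgcr8 iKO, 40 of 44 rose and 1 fell, with a median of 2.92, where 13.4% of 13252 genes rose and 6.99% fell. The mutant libraries lay above all their controls for 42 of 44 genes with either allele, compared with 21.7% of all genes for Dicer and 29.2% for Dgcr8. The gene that fell after crush and in Dgcr8 iKO was Slamf9 in each case. Of 43 genes tested in all 4 comparisons with controls, 37 rose in all 4. The share of all genes that rose in all 4 was not computed. Without Dicer control 2, 30 genes rose in Dicer iKO in place of 41, and without Dicer control 1, 42. The heat map of levels by library shows the rise as bands over the crushed and both iKO groups.

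**Figure D1:**
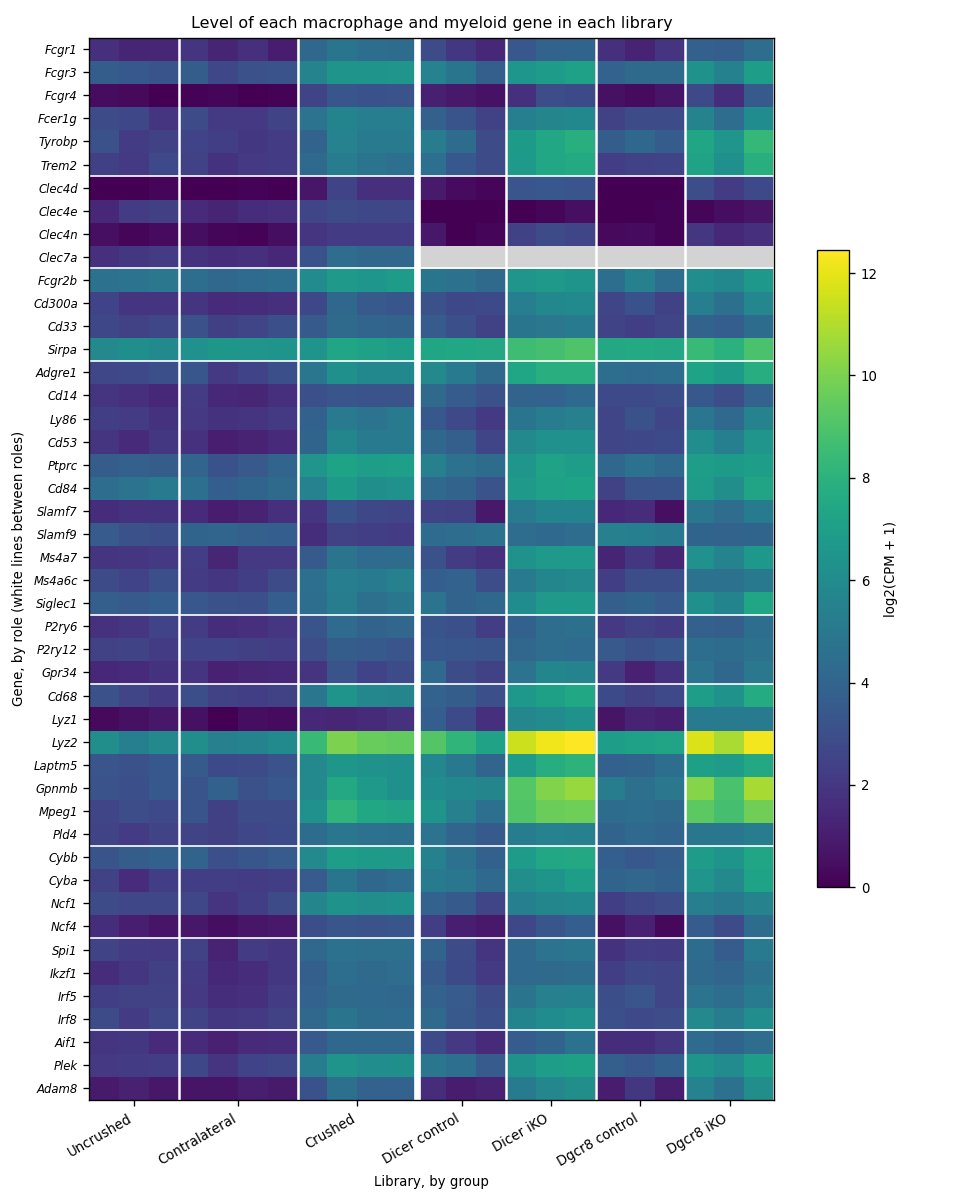
Level of each of the 46 genes (rows, by role) in each of the 23 libraries (columns, by group), as log2(CPM + 1); grey marks the gene not listed in the iKO libraries. The crushed, Dicer iKO and Dgcr8 iKO columns are brighter than their controls in nearly every row, Lyz2 is the brightest row, and Slamf9 is darker in crushed nerves than in their controls.

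**Figure D2:**
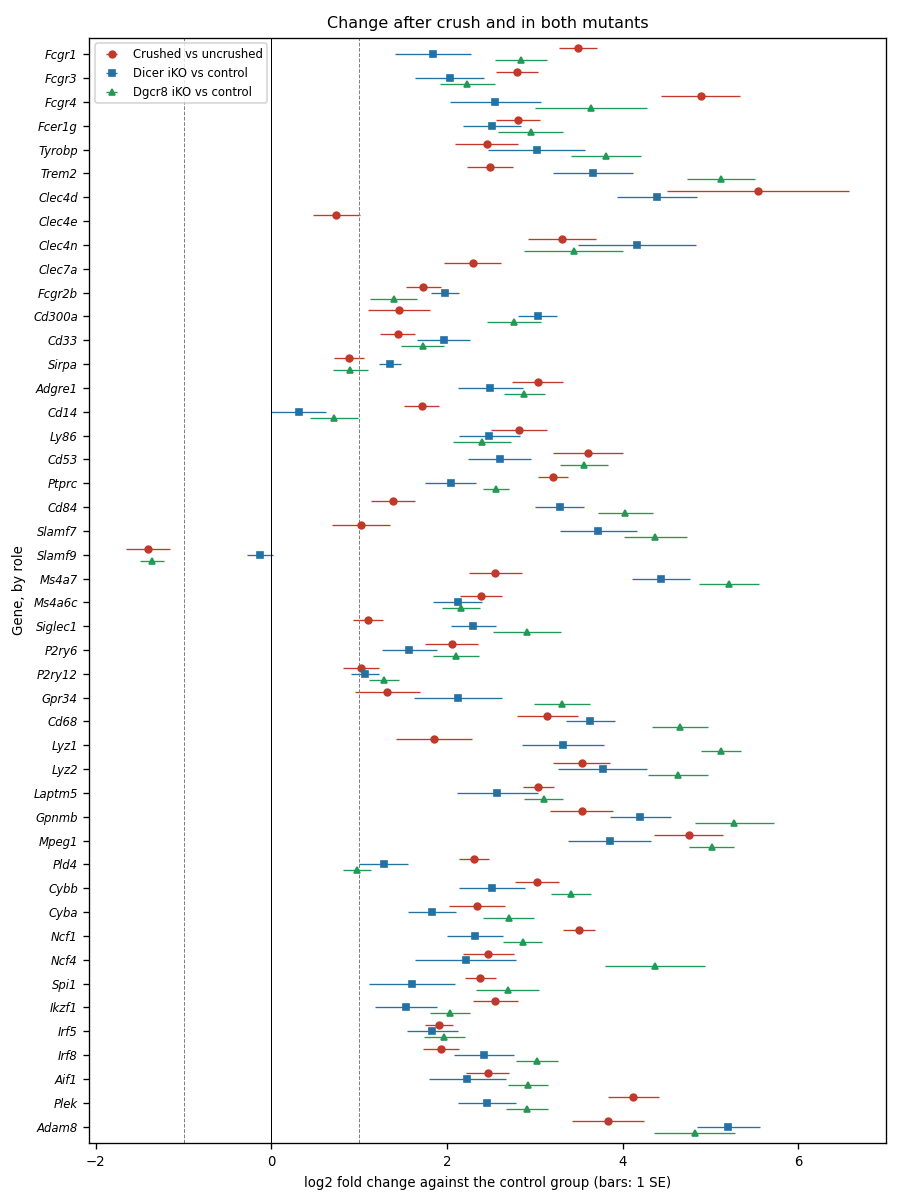
log2 fold change (points, bars of 1 SE) of each gene for crushed against uncrushed nerves and for each mutant against its controls; dashed lines mark 2-fold, and Clec4d is left out for Dgcr8, whose controls had 0 counts. Most points lie right of the upper dashed line, and Slamf9 lies left of 0 in all 3 comparisons.

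Between contralateral and uncrushed nerves, 0 of 40 tested genes passed the test, as did 0% of all 17654 genes, while 8 of the 40 and 3154 of all genes had an unadjusted p under 0.05 by edgeR. The fitted difference was below 0 (lower in contralateral nerves) for 31 and above 0 for 9, with a median of -0.28 and a range of -0.74 to 0.61. DESeq2 also called 0 of them.

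The 4 transcription factors are Spi1, which encodes PU.1, the master regulator of the macrophage lineage, Ikzf1 (Ikaros), and the interferon regulatory factors Irf5 and Irf8. Spi1 was at 17.5, 24.9, 23.4 and 23.4 CPM in crushed nerves, at 4.78, 3.41 and 3.36 CPM in uncrushed nerves and at 4.41, 1.32, 3.43 and 2.95 CPM in contralateral nerves. In Dicer iKO it was at 18, 25.7 and 28.3 CPM against 14.8, 6.15 and 2.85 CPM in controls, and in Dgcr8 iKO at 20.1, 11.2 and 32.4 CPM against 2.59, 3.75 and 3.43 CPM. No group overlapped its controls, and Dicer control 1 lay nearest to the mutants. Spi1 rose after crush (log2 fold change 2.38 ± 0.18 SE) and in Dgcr8 iKO (2.69 ± 0.36), and the value in Dicer iKO, 1.60 ± 0.49, did not pass (adjusted p = 0.0543). It passed without Dicer control 1 (2.41, adjusted p = 0.00465) or Dicer control 3 (1.2, adjusted p = 0.0443), and by DESeq2 (adjusted p = 0.00624).

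Ikzf1 was at 12.6, 22, 18.8 and 20.6 CPM in crushed nerves and at 2.05, 2.94 and 4.12 CPM in uncrushed nerves, with contralateral nerves at 1.63 to 3.49 CPM. In the mutants it was at 18.4, 18.6 and 20.1 CPM (Dicer iKO) against 10.5, 6.02 and 3.39 CPM, and at 18.1, 15.6 and 25.2 CPM (Dgcr8 iKO) against 3.88, 5.50 and 4.99 CPM. Ikzf1 rose in each case, by a log2 fold change of 2.55 ± 0.26 after crush, 1.53 ± 0.35 in Dicer iKO and 2.03 ± 0.23 in Dgcr8 iKO. Its call in Dicer iKO was lost without Dicer control 2, Dicer iKO 2 or Dicer iKO 3 (adjusted p = 0.0726 to 0.0869).

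Irf5 was at 13.9, 19.1, 18 and 17.2 CPM in crushed and 3.93, 4.35 and 4.27 CPM in uncrushed nerves, with contralateral nerves at 2.10 to 3.45 CPM. It was at 26.4, 42.4 and 42.8 CPM in Dicer iKO against 13.9, 11.0 and 6.52 CPM, and at 25.9, 21.4 and 33.4 CPM in Dgcr8 iKO against 6.93, 8.71 and 4.99 CPM. Irf5 rose after crush, by 1.91 ± 0.16 on the log2 scale with uncrushed nerves as the control and by 2.49 ± 0.16 with contralateral ones, by 1.83 ± 0.29 in Dicer iKO and by 1.97 ± 0.23 in Dgcr8 iKO.

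Irf8 was at 16.6, 27.3, 20.5 and 19.5 CPM in crushed and 6.07, 3.65 and 5.34 CPM in uncrushed nerves, with contralateral nerves at 3.03 to 4.96 CPM. It was at 48.0, 65.5 and 78.5 CPM in Dicer iKO against 18.7, 10.2 and 7.20 CPM, and at 56.5, 36.0 and 67.9 CPM in Dgcr8 iKO against 7.17, 5.76 and 6.65 CPM. Irf8 rose by a log2 fold change of 1.93 ± 0.20 after crush, 2.42 ± 0.34 in Dicer iKO and 3.02 ± 0.24 in Dgcr8 iKO.

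PU.1 and the interferon regulatory factors bind known short motifs, so the promoters of the genes that rose with them were searched for these letters. RefSeq promoter windows, from 250 bases before to 50 after the gene's start (GRCm38.p6), matched 36 of the 46 genes in 42 windows. Tyrobp, Clec4n, Sirpa, Adgre1, Cd14, Siglec1, P2ry6, Gpr34, Ncf4 and Spi1 were not matched. On either strand, the PU.1 motif GAGGAAGT was in 9.52% of the 42 windows and in 3.2% of all 32851 windows, and its shorter core GAGGAA, which it contains, in 52.4% and 28.3%. The interferon-stimulated response element (GAAA, any 2 bases, GAAA) was in 11.9% and 3.44%, the AP-1 motif TGANTCA in 16.7% and 7.81%, and the C/EBP motif TTGCNNAA in 21.4% and 10.8%. These matches are a description and show no binding. The 4 windows with GAGGAAGT are printed here 5′ to 3′ on the gene's strand, with the motif or its reverse complement in capitals, because 2 of their genes, Pld4 and Slamf9, are among the exceptions described below.
Cd53 (chr3:106790105-106790174, minus strand): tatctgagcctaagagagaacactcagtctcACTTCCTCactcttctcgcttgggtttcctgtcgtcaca
Fcgr4 (chr1:171018871-171018940, plus strand): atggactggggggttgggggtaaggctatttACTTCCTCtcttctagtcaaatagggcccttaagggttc
Pld4 (chr12:112760633-112760702, plus strand): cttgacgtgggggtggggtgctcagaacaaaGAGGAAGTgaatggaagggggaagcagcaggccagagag
Slamf9 (chr1:172475321-172475390, plus strand): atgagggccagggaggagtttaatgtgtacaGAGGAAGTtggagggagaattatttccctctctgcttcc
The motif began 6 and 9 bases after the first transcribed base in Cd53 and Pld4, and 24 and 8 bases before it (positions -24 and -8) in Fcgr4 and Slamf9. The same motif thus lay close to the start of a gene that rose more after crush than in either mutant (Pld4) and to that of the gene that fell (Slamf9). The response element was in 5 of the 36 genes, Aif1, Clec4d, Cybb, Fcgr4 and Ncf1, of which an NADPH oxidase pair and an Fc receptor are shown.
Cybb (chrX:9469313-9469384, minus strand): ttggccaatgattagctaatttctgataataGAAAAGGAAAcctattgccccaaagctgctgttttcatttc
Ncf1 (chr5:134229667-134229738, minus strand): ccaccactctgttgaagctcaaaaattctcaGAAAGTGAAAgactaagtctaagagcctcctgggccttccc
Fcgr4 (chr1:171018822-171018893, plus strand): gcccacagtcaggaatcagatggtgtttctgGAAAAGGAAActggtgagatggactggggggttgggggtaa
The element began 29, 82 and 73 bases before the start (positions -29, -82 and -73) in these windows, and the Cybb promoter held further matches at -168 and -124.

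Receptors and adaptors of the ITAM type, 6 genes, rose in all 4 comparisons with controls. Tyrobp (DAP12), the adaptor with the highest mean TPM of this set in crushed nerves, was at 14.5, 44.7, 34.7 and 35.3 CPM there, at 7.60, 3.65 and 4.43 CPM in uncrushed and at 3.03 to 4.59 CPM in contralateral nerves. In Dicer iKO Tyrobp was at 111, 168 and 231 CPM against 36.5, 20.2 and 6.38 CPM, and in Dgcr8 iKO at 163, 89.4 and 314 CPM against 11.6, 17.4 and 11.4 CPM. Its log2 fold changes were 2.45 ± 0.36 after crush, 3.02 ± 0.55 in Dicer iKO and 3.81 ± 0.40 in Dgcr8 iKO, and the Dicer call was lost without Dicer control 2 or Dicer iKO 3 (adjusted p = 0.0536 and 0.0503). Trem2, a lipid-sensing receptor that signals through Tyrobp, had 2.49 ± 0.26, 3.66 ± 0.46 and 5.12 ± 0.39. The activating Fc receptors for IgG were ordered differently from Trem2, with Fcgr1 at 3.49 ± 0.22 after crush, 1.84 ± 0.43 in Dicer iKO and 2.84 ± 0.30 in Dgcr8 iKO. Fcgr3 had 2.80, 2.03 and 2.23, Fcgr4 4.89, 2.55 and 3.64, and Fcer1g, the adaptor they share, 2.81, 2.51 and 2.95. Fcgr4 was at 4.90 to 9.16 CPM in crushed and 0 to 0.342 CPM in uncrushed nerves. It had 0 to 8 counts in each control library and passed the filter only through the crushed or iKO libraries. The size of its rise is therefore uncertain. Fcgr3, Fcgr4 and Fcgr2b are similar in sequence and close together on chromosome 1, and their reads were divided by an estimate. In Dicer iKO the calls of Fcgr1, Fcgr3 and Fcgr4 were lost without Dicer control 2, Dicer iKO 2 or Dicer iKO 3, with adjusted p of 0.0506 to 0.0976.

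The C-type lectin receptors recognize microbial and damage-derived ligands. Clec7a (Dectin-1) was at 7.79, 21.1, 16.7 and 16.2 CPM in crushed nerves against 2.31, 3.06 and 3.51 CPM in uncrushed and 1.67 to 2.57 CPM in contralateral nerves, a log2 fold change of 2.29 ± 0.32. Clec4e (Mincle) was at 5.16, 6.14, 5.39 and 5.32 CPM in crushed nerves and at 1.71, 3.65 and 4.12 CPM in uncrushed nerves. The crushed libraries were all higher, but the log2 fold change, 0.74 ± 0.27, was under the 2-fold limit, while it was 1.36 ± 0.18 against contralateral nerves at 1.48 to 2.36 CPM. In the 12 iKO libraries Clec4e had 0 to 5 counts and was not tested in either mutant against its controls. It entered the fit of all 23 libraries only through the crush libraries. Its crush effect minus mutant effect, -2.97 ± 1.49 from Dicer and -2.07 ± 1.07 from Dgcr8, did not pass (adjusted p = 0.124 and 0.139).

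Clec4d had 0.700, 4.89, 2.20 and 2.21 CPM in crushed nerves and 0, 0 and 0.153 CPM in uncrushed nerves, where it rose, and it did not pass the filter against contralateral nerves (0 to 0.0979 CPM). In Dicer iKO it was at 8.75, 9.56 and 8.77 CPM against 0.861, 0.267 and 0.136 CPM. In Dgcr8 iKO it was at 6.82, 3.61 and 5.71 CPM against 0 counts in all 3 controls, at least 13.4-fold higher than the control floor of 0.402 CPM (3 counts per library, for counting error only). With Clec4d at this bound the median over the 44 genes stayed at 2.92. Clec4n (Dectin-2) rose in all 4 comparisons, with log2 fold changes of 3.31 ± 0.39 after crush, 4.16 ± 0.67 in Dicer iKO and 3.44 ± 0.56 in Dgcr8 iKO. It was at 2.63 to 3.65 CPM in crushed, 4.51 to 6.26 CPM in Dicer iKO and 1.61 to 2.94 CPM in Dgcr8 iKO nerves. Every control library had 0 to 5 counts of Clec4n. Clec4d and Clec4n passed the filter only through the crushed or iKO libraries, so the sizes of their rises are uncertain.

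Of the 4 inhibitory receptors, Fcgr2b, the inhibitory receptor for IgG, had the highest mean TPM in crushed nerves. It was at 63.5, 103, 92 and 119 CPM there, at 24.3, 25.4 and 29.6 CPM in uncrushed and at 16.6 to 21.4 CPM in contralateral nerves. It was at 88.9, 105 and 85.9 CPM in Dicer iKO against 27.9, 24.5 and 18.9 CPM, and at 68.7, 56.1 and 97.5 CPM in Dgcr8 iKO against 21.7, 41.4 and 21.4 CPM. Fcgr2b rose in each, by a log2 fold change of 1.73 ± 0.20, 1.98 ± 0.16 and 1.39 ± 0.27. Cd33 (a sialic acid-binding receptor) rose by 1.44, 1.96 and 1.72.

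Sirpa, the receptor for the "do not eat me" signal CD47, was at 87.0, 162, 138 and 127 CPM in crushed nerves, 57.9, 73.8 and 61.1 CPM in uncrushed nerves and 76.7, 94.2, 90.5 and 85.5 CPM in contralateral nerves, so crushed 1 lay within the contralateral range. It was at 385, 435 and 513 CPM in Dicer iKO against 165, 177 and 182 CPM, and at 337, 246 and 466 CPM in Dgcr8 iKO against 183, 192 and 185 CPM. The log2 fold change was 1.35 ± 0.13 in Dicer iKO, a call, and 0.88 ± 0.17 after crush and 0.90 ± 0.20 in Dgcr8 iKO, both under 2-fold with adjusted p of 7.43e-04 and 0.00415. It reached 2-fold after crush without crushed 1 or uncrushed 2 and in Dgcr8 iKO without Dgcr8 iKO 2 (1.10).

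Among 11 other surface proteins, Ptprc (CD45), the phosphatase on all leukocytes, had the highest mean TPM in crushed nerves. It was at 88.9, 146, 127 and 129 CPM there, at 11.7, 13.1 and 11.8 CPM in uncrushed and at 7.78 to 15.9 CPM in contralateral nerves. It was at 89.0, 142 and 126 CPM in Dicer iKO against 42.6, 24.3 and 20.2 CPM, and at 120, 109 and 124 CPM in Dgcr8 iKO against 17.5, 23.7 and 18.4 CPM. Ptprc rose by a log2 fold change of 3.21 ± 0.17, 2.04 ± 0.29 and 2.56 ± 0.15. Adgre1 (F4/80), the classical surface marker of mouse macrophages, rose by 3.03, 2.49 and 2.88, the tetraspanin Cd53 by 3.60, 2.60 and 3.56, the MD-1 protein Ly86 by 2.82, 2.48 and 2.40, and Ms4a6c by 2.39, 2.12 and 2.16.

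Cd14, the coreceptor for bacterial lipopolysaccharide, was the 1 gene that rose against both crush controls and in neither mutant. It was at 7.18, 8.81, 7.99 and 8.03 CPM in crushed nerves, 2.65, 2.23 and 1.68 CPM in uncrushed nerves and 1.57 to 3.67 CPM in contralateral nerves, with no overlap (log2 fold change 1.71 ± 0.20). It was at 14.5, 13.9 and 18.1 CPM in Dicer iKO against 18.7, 11.5 and 7.60 CPM in controls, and at 9.88, 6.64 and 13.9 CPM in Dgcr8 iKO against 5.64, 5.76 and 6.96 CPM. The groups overlapped with either allele, and the values of 0.31 ± 0.31 (adjusted p = 0.510) and 0.71 ± 0.27 (adjusted p = 0.0535) did not pass.

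Slamf9, a receptor of the SLAM family, went against the rest. It was at 2.10, 4.45, 3.90 and 3.71 CPM in crushed nerves, 11.1, 7.41 and 7.02 CPM in uncrushed nerves and 15.1, 15.6, 12.9 and 12.4 CPM in contralateral nerves. It fell against both, by 1.41 ± 0.25 and 2.13 ± 0.18 on the log2 scale. In Dgcr8 iKO it was at 15.2, 14.4 and 15 CPM against 41.6, 40.1 and 32.7 CPM and fell by 1.36 ± 0.14. In Dicer iKO it was at 21.1, 17.9 and 20.7 CPM against 19.7, 20.6 and 25.3 CPM, with overlapping libraries and a log2 fold change of -0.13 ± 0.15 (adjusted p = 0.576). Its rank by TPM among the 46 genes was 8 in uncrushed and 41 in crushed nerves.

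The nucleotide and lysophospholipid receptors guide macrophages to damaged cells. P2ry6, a receptor for UDP, was at 8.40, 19.4, 14.7 and 16.3 CPM in crushed, 2.48, 2.94 and 4.73 CPM in uncrushed and 2.10 to 3.67 CPM in contralateral nerves. It was at 13.8, 20.7 and 22.8 CPM in Dicer iKO against 8.33, 7.22 and 3.80 CPM, and at 13.2, 12.6 and 21.5 CPM in Dgcr8 iKO against 3.17, 4.29 and 3.53 CPM. P2ry6 rose by 2.05 ± 0.30, 1.57 ± 0.31 and 2.10 ± 0.26, and its call in Dicer iKO was lost without Dicer control 2, Dicer iKO 2 or Dicer iKO 3 (adjusted p = 0.0533, 0.0622 and 0.07).

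P2ry12, the ADP receptor known from microglia, had small changes on either side of the limit. It was at 6.74, 11.8, 10.6 and 8.63 CPM in crushed nerves, 4.36, 4.82 and 3.51 CPM in uncrushed nerves and 4.59, 4.59, 4.11 and 3.84 CPM in contralateral nerves. It was at 16.2, 20.9 and 19.4 CPM in Dicer iKO against 9.48, 8.96 and 8.42 CPM, and at 21.9, 19.8 and 23.8 CPM in Dgcr8 iKO against 9.99, 7.37 and 9.35 CPM. No group overlapped its controls, and the log2 fold changes were 1.02 ± 0.21 (uncrushed), 0.99 ± 0.17 (contralateral), 1.07 ± 0.16 and 1.28 ± 0.17. The call against uncrushed nerves was lost without crushed 2, crushed 3 or uncrushed 3, and that against contralateral nerves was made without contralateral 1, contralateral 2, crushed 1 or crushed 4. P2ry12 lies within Med12l on the other strand and Gpr34 within Cask on the other strand. Gpr34, a lysophosphatidylserine receptor, rose by 1.32 ± 0.37 after crush, 2.12 ± 0.50 in Dicer iKO and 3.31 ± 0.32 in Dgcr8 iKO. Its call in Dicer iKO was lost without the same 3 libraries as that of P2ry6 (adjusted p = 0.0926, 0.091 and 0.0923).

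Lysosomal proteins and lysozymes held the largest levels. Lyz2 (lysozyme M), which ranked 1 by TPM among these genes in crushed and both iKO groups, was at 352, 1036, 748 and 693 CPM in crushed nerves, 69.3, 40.7 and 58.0 CPM in uncrushed nerves and 42.2 to 71.3 CPM in contralateral nerves. It was at 2929, 4718 and 5605 CPM in Dicer iKO against 550, 281 and 144 CPM, and at 3587, 1859 and 4763 CPM in Dgcr8 iKO against 121, 138 and 151 CPM. Lyz2 rose by 3.53 ± 0.32 after crush, 3.77 ± 0.51 in Dicer iKO and 4.63 ± 0.34 in Dgcr8 iKO. Mpeg1 (perforin-2) rose by 4.75, 3.85 and 5.01, Cd68 (macrosialin) by 3.14, 3.63 and 4.65, and Laptm5 by 3.04, 2.57 and 3.10. The Dicer call of Laptm5 was lost without Dicer control 2 (adjusted p = 0.0512).

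Gpnmb, a glycoprotein of lipid-laden macrophages, rose by 3.53 ± 0.36 after crush, 4.20 ± 0.35 in Dicer iKO and 5.27 ± 0.45 in Dgcr8 iKO. It ranked 22 by TPM in uncrushed nerves, 14 in crushed nerves, 8 and 10 in the Dicer and Dgcr8 controls and 3 in both mutants. Lyz1, a lysozyme gene adjacent to Lyz2 and similar to it, was at 1.58, 1.51, 1.80 and 2.41 CPM in crushed nerves, 0.256, 0.470 and 0.763 CPM in uncrushed nerves and 0 to 0.459 CPM in contralateral nerves. It was at 54.0, 63.8 and 80.3 CPM in Dicer iKO against 12.1, 5.75 and 2.17 CPM, and at 34.1, 34.4 and 35.3 CPM in Dgcr8 iKO against 0.588, 1.34 and 1.04 CPM. It was the gene of lowest TPM rank in crushed nerves (46) and ranked 15 and 19 in Dicer and Dgcr8 iKO and 23 and 39 in their controls. Reads shared by Lyz1 and Lyz2 were divided by an estimate, so the level of the rarer Lyz1 is uncertain.

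**Figure D3:**
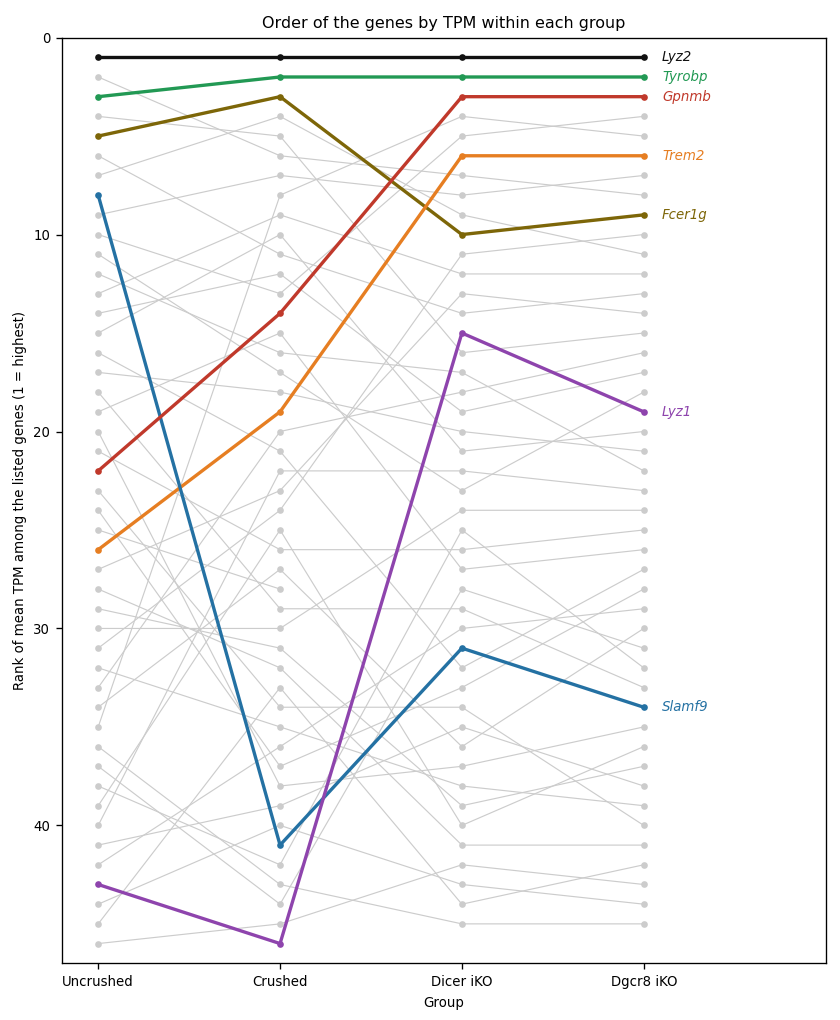
Rank of the mean TPM (1 is the highest) of each gene within 4 groups, joined by lines; colored lines are named at the right. Lyz2 and Tyrobp stay at ranks 1 to 3, Gpnmb, Trem2 and Lyz1 stand higher in the mutants than in crushed nerves, and Slamf9 drops from 8 in uncrushed to 41 in crushed nerves.

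The order of these genes by TPM within a group, which corrects for transcript length, also differed at the top. In crushed nerves the first ranks were held by Lyz2, Tyrobp, Fcer1g, Fcgr3 and Fcgr2b, and in both mutants by Lyz2, Tyrobp and Gpnmb, with Trem2 at rank 6 in the mutants and 19 in crushed nerves. Control nerves of the 2 experiments differed in this order too, with Trem2 at rank 14 and 21 in the Dicer and Dgcr8 controls and 26 in uncrushed nerves. TPM values themselves were not compared between experiments, because a single 5S ribosomal RNA gene took 61.4 to 71.8% of TPM in the crush libraries.

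All 4 NADPH oxidase subunits rose in all 4 comparisons. Cyba (p22phox), with the highest mean TPM of them in crushed nerves, was at 11.1, 27.3, 17.3 and 20.6 CPM there, at 4.27, 2.0 and 3.97 CPM in uncrushed and 3.52 to 4.04 CPM in contralateral nerves. It was at 69.5, 86.4 and 122 CPM in Dicer iKO against 32.6, 28.2 and 17.9 CPM, and at 87.8, 57.7 and 148 CPM in Dgcr8 iKO against 14.9, 16.5 and 13.5 CPM. Cyba rose by 2.34 ± 0.32, 1.83 ± 0.27 and 2.70 ± 0.29. Its membrane partner Cybb (gp91phox) rose by 3.02, 2.51 and 3.41, and the cytosolic subunits Ncf1 (p47phox) by 3.50, 2.32 and 2.86 and Ncf4 (p40phox) by 2.47, 2.21 and 4.37. The Dicer call of Ncf4 was lost without Dicer control 2, Dicer iKO 2 or Dicer iKO 3 (adjusted p = 0.11, 0.0991 and 0.126).

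Of the cytoplasmic proteins and the protease, Aif1 (IBA1), an actin-binding marker of macrophages and microglia, was at 10.2, 17.6, 16.9 and 16.7 CPM in crushed nerves, 2.65, 3.06 and 1.83 CPM in uncrushed nerves and 1.24 to 1.97 CPM in contralateral nerves. It was at 11.4, 15.1 and 24.2 CPM in Dicer iKO against 5.89, 3.21 and 1.77 CPM, and at 19.3, 14.9 and 21.1 CPM in Dgcr8 iKO against 2.12, 2.14 and 2.91 CPM. Aif1 rose by 2.46 ± 0.24, 2.23 ± 0.44 and 2.92 ± 0.23, and its Dicer call was lost without Dicer control 2, Dicer iKO 2 or Dicer iKO 3 (adjusted p = 0.0631, 0.0506 and 0.0647). The protein kinase C substrate Plek rose by 4.12, 2.45 and 2.91, and the metalloprotease Adam8 by 3.83, 5.20 and 4.82.

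The question that joins both experiments is whether a gene's rise after crush differed in size from its rise in a mutant, and this difference was tested itself. In a fit of all 23 libraries, the crush effect (crushed against uncrushed) minus the Dicer effect was above 0 for 6 of 45 genes and below 0 for 6 at adjusted p of at most 0.05, where 23.6% and 15.1% of all 15355 genes tested were. For the crush effect minus the Dgcr8 effect, 1 gene was above 0 and 11 below, where 22.7% and 14.3% of all genes were. Both differences use the same crush libraries, and the share of all genes called in both was not computed. The shares above 0 were lower than over all genes in both, and 27 of the 45 genes were called in neither. For those 27, a p above the threshold does not show that crush and mutation moved them alike.

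**Figure D4:**
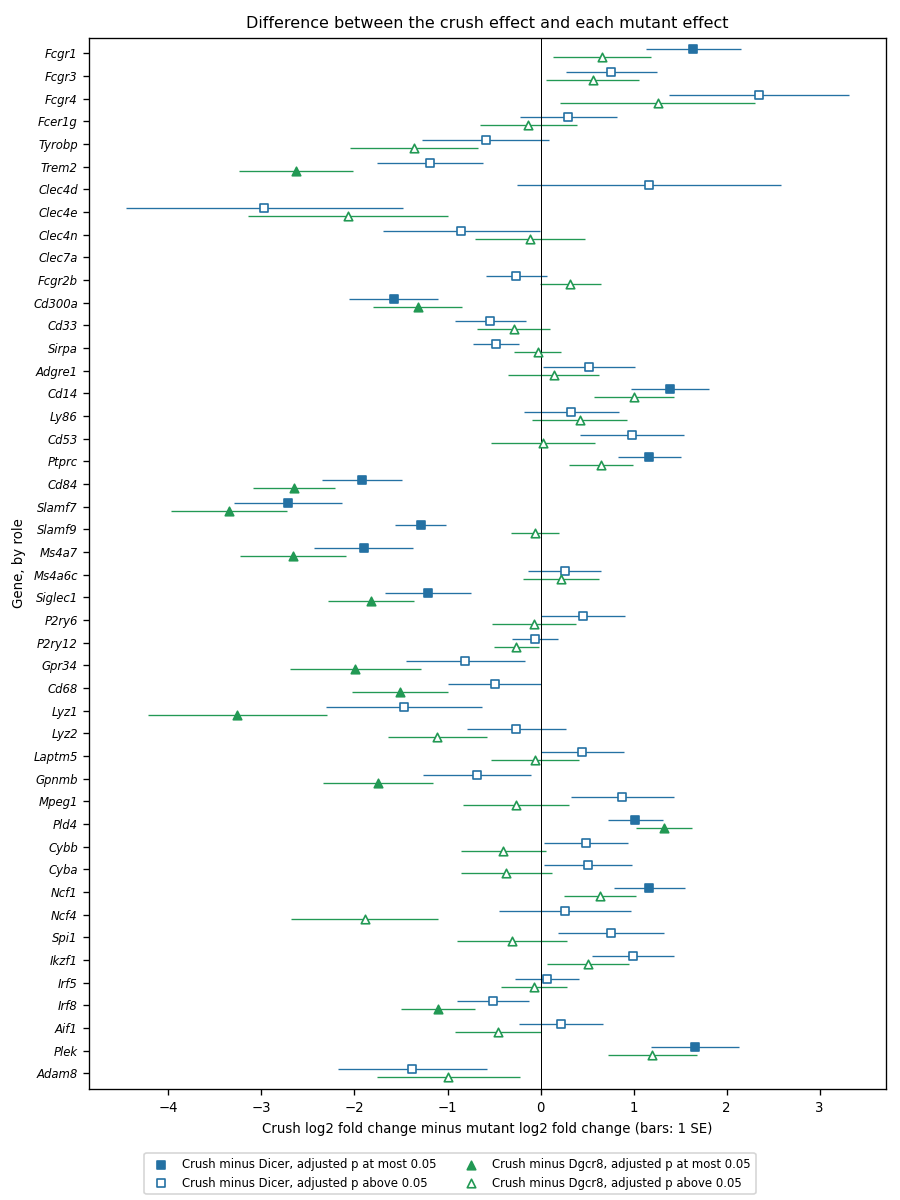
Crush log2 fold change (crushed minus uncrushed) minus mutant log2 fold change for each gene (points, bars of 1 SE; filled where adjusted p was at most 0.05); Clec7a is not listed in the iKO libraries and Clec4d against Dgcr8 is left out. Pld4 is filled right of 0 for both mutants, and Cd300a, Cd84, Slamf7, Ms4a7 and Siglec1 are filled left of 0 for both. The points of Clec4e rest on 0 to 5 counts per iKO library.

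Pld4 was the 1 gene whose rise after crush exceeded that in both mutants. Pld4 encodes a nucleic acid-degrading enzyme of the endolysosome and was at 20.0, 28.6, 24.0 and 23.1 CPM in crushed, 4.87, 3.53 and 4.88 CPM in uncrushed and 4.12 to 6.01 CPM in contralateral nerves. It was at 38.1, 45.2 and 41.8 CPM in Dicer iKO against 25.6, 15.6 and 10.6 CPM, and at 28.4, 29.0 and 38.0 CPM in Dgcr8 iKO against 14.7, 18.1 and 15.6 CPM. The groups were separate in each case, and the log2 fold changes were 2.31 ± 0.17, 1.28 ± 0.28 and 0.97 ± 0.16, the last under 2-fold. Without Dgcr8 control 2, Dgcr8 iKO 1 or Dgcr8 iKO 2 it was 1.04 to 1.06 and a call, and the Dicer call was lost without Dicer control 2, Dicer iKO 2 or Dicer iKO 3. The difference was 1.02 ± 0.30 from Dicer (adjusted p = 0.00982) and 1.33 ± 0.30 from Dgcr8 (adjusted p = 0.00141). The call against Dicer was lost without crushed 3, uncrushed 1 or uncrushed 2, where the adjusted p were 0.0553, 0.0563 and 0.13.

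The crush effect was above the Dicer effect alone for Plek (1.66 ± 0.47, adjusted p = 0.00708), Fcgr1 (1.64 ± 0.51, 0.0132), Cd14 (1.39 ± 0.42, 0.0114), Ptprc (1.17 ± 0.34, 0.00865) and Ncf1 (1.17 ± 0.38, 0.0166). Against Dgcr8 their differences were also above 0, at 1.2, 0.66, 1.0, 0.65 and 0.64, and did not pass (adjusted p = 0.0516 to 0.350). These Dicer calls rested on single libraries. Fcgr1 was lost without uncrushed 2, uncrushed 3 or Dicer control 1, Cd14 without uncrushed 2 or uncrushed 3, and Ptprc without uncrushed 1 or uncrushed 3. Plek was lost without uncrushed 1, and Ncf1 without crushed 3, Dicer control 1 or any 1 uncrushed library. Against Dgcr8, Plek passed without crushed 1, Dgcr8 control 2 or Dgcr8 iKO 3 (1.37 to 1.51) and Cd14 without Dgcr8 iKO 3 (1.32).

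The 5 genes named next rose less after crush than in either mutant. Slamf7, a SLAM family receptor that promotes phagocytosis, differed most. It was at 2.63, 7.83, 5.49 and 5.12 CPM in crushed, 2.14, 2.47 and 2.59 CPM in uncrushed and 1.75, 1.01, 1.37 and 2.17 CPM in contralateral nerves. It was at 34.3, 48.9 and 47.9 CPM in Dicer iKO against 4.88, 4.28 and 0.815 CPM, and at 29.1, 20.7 and 32.5 CPM in Dgcr8 iKO against 1.65, 2.01 and 0.416 CPM. Crushed 1 was barely above the uncrushed libraries, whereas every mutant library was above every control. The rise was 1.02 ± 0.33 after crush against 3.72 ± 0.44 and 4.37 ± 0.36 in the mutants, a difference of -2.71 ± 0.58 from Dicer and -3.35 ± 0.62 from Dgcr8 (adjusted p = 6.48e-04 and 2.05e-04). The call after crush itself was lost without crushed 2, crushed 3, crushed 4 or uncrushed 1.

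Cd84, another SLAM family receptor, was at 45.7, 108, 73.0 and 78.6 CPM in crushed nerves, 21.1, 25.6 and 34.8 CPM in uncrushed nerves and 22.3, 12.4, 15.2 and 18.5 CPM in contralateral nerves. It was at 105, 140 and 149 CPM in Dicer iKO against 17.9, 14.6 and 8.01 CPM, and at 116, 70.8 and 155 CPM in Dgcr8 iKO against 4.47, 8.04 and 8.31 CPM. The groups were separate, with log2 fold changes of 1.38 ± 0.25, 3.28 ± 0.28 and 4.03 ± 0.31. The differences were -1.92 ± 0.43 and -2.65 ± 0.44 (adjusted p = 9.87e-04 and 6.41e-05).

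Ms4a7, a tetraspan membrane protein of macrophages, was at 10.5, 27.0, 19.5 and 20.1 CPM in crushed nerves, 2.82, 2.94 and 3.36 CPM in uncrushed nerves and 3.77, 1.56, 3.23 and 3.25 CPM in contralateral nerves. It was at 82.9, 102 and 105 CPM in Dicer iKO against 7.47, 3.48 and 2.44 CPM, and at 76.7, 46.3 and 98.5 CPM in Dgcr8 iKO against 1.41, 3.08 and 1.56 CPM. All groups were separate, and the log2 fold changes were 2.55 ± 0.30, 4.44 ± 0.33 and 5.21 ± 0.34. The differences were -1.90 ± 0.53 and -2.66 ± 0.57 (adjusted p = 0.00658 and 8.84e-04). The calls of Slamf7, Cd84 and Ms4a7 against both mutants held under every alternative run, contralateral nerves as the crush control included.

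Siglec1 (sialoadhesin) was at 22, 36.2, 23.2 and 28.6 CPM in crushed nerves, 12.7, 10.5 and 12.1 CPM in uncrushed nerves and 7.15 to 12 CPM in contralateral nerves. It was at 66.3, 107 and 106 CPM in Dicer iKO against 25.6, 14.8 and 16.6 CPM, and at 75.9, 47.5 and 166 CPM in Dgcr8 iKO against 12.7, 14.9 and 10.8 CPM. Its rise was 1.10 ± 0.17, 2.30 ± 0.26 and 2.91 ± 0.39, the first under 2-fold without crushed 2 (0.94), and the differences were -1.21 ± 0.46 (adjusted p = 0.0392) and -1.82 ± 0.46 (adjusted p = 0.00349). The call against Dicer was lost without any 1 of crushed 1, uncrushed 1, Dicer control 2, Dicer control 3, Dicer iKO 2 and Dicer iKO 3, and with contralateral nerves as the control (adjusted p = 0.189).

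Cd300a, an inhibitory receptor for phosphatidylserine on dying cells, was at 5.43, 17.1, 10.3 and 9.13 CPM in crushed nerves, 4.61, 2.82 and 2.75 CPM in uncrushed nerves and 1.87 to 2.66 CPM in contralateral nerves. It was at 38.6, 56.0 and 60.9 CPM in Dicer iKO against 7.61, 5.48 and 5.97 CPM, and at 39.3, 23.2 and 53.9 CPM in Dgcr8 iKO against 5.05, 7.77 and 4.36 CPM. Its rise was 1.45 ± 0.35, 3.03 ± 0.22 and 2.76 ± 0.31, and the differences were -1.58 ± 0.48 (adjusted p = 0.0110) and -1.32 ± 0.48 (adjusted p = 0.0335). With contralateral nerves as the control neither passed (-0.86 and -0.59, adjusted p = 0.164 and 0.36). The call against Dicer was also lost without uncrushed 1, and that against Dgcr8 without crushed 1, uncrushed 1, Dgcr8 control 1, Dgcr8 control 3, Dgcr8 iKO 1 or Dgcr8 iKO 3.

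A further 6 genes rose less after crush than in Dgcr8 iKO alone. These were Lyz1 (-3.26 ± 0.96, adjusted p = 0.0103), Trem2 (-2.63 ± 0.61, 0.00178), Gpr34 (-1.99 ± 0.70, 0.0285), Gpnmb (-1.75 ± 0.59, 0.0226), Cd68 (-1.51 ± 0.52, 0.0265) and Irf8 (-1.10 ± 0.40, 0.0365). Against Dicer their differences were -1.47, -1.19, -0.81, -0.68, -0.49 and -0.51 and did not pass (adjusted p = 0.106 to 0.473). Trem2 held under every alternative. Without Dgcr8 iKO 3, Gpr34, Gpnmb, Cd68 and Irf8 were lost. Irf8 was further lost without crushed 1, uncrushed 1, Dgcr8 iKO 1 or any 1 Dgcr8 control, Cd68 without uncrushed 1 or Dgcr8 control 2, Gpnmb without Dgcr8 control 2, Gpr34 without uncrushed 3 or Dgcr8 control 2, and Lyz1 without uncrushed 3. Cd68 and Irf8 also did not pass with contralateral nerves as the control. Without Dicer control 1, the differences of Trem2, Gpr34 and Lyz1 from Dicer passed too (-1.83, -1.59 and -2.17). Slamf9 was the 1 gene below Dicer alone, at -1.29 ± 0.27 (adjusted p = 5.23e-04), and its difference from Dgcr8 was -0.06 ± 0.26. For the other transcription factors the differences from Dicer and Dgcr8 were 0.76 and -0.31 for Spi1, 0.99 and 0.51 for Ikzf1, and 0.07 and -0.07 for Irf5, with adjusted p of 0.0798 to 0.923. Ikzf1 exceeded the Dicer effect without crushed 1 or Dicer control 3 (1.14 and 1.32).

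**Figure D5:**
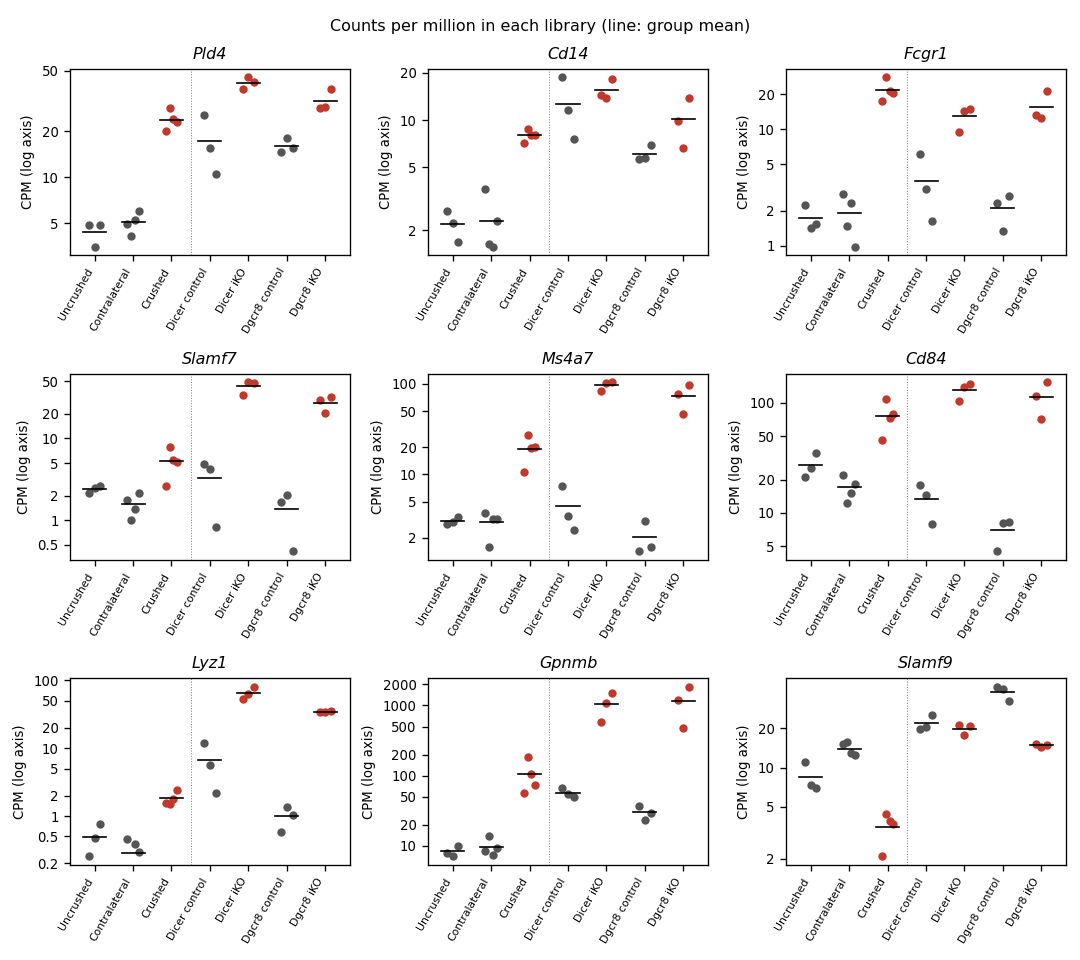
CPM in each library (points, log axis) and group mean (lines) for 9 genes, controls in grey and crushed or iKO nerves in red; the dotted line parts the experiments, whose CPM are not compared, and the contralateral library at 0 for Lyz1 is not drawn. Pld4, Cd14 and Fcgr1 stand farther above controls after crush, Slamf7, Ms4a7, Cd84, Lyz1 and Gpnmb farther above controls in the mutants, and Slamf9 lies below controls in crushed and Dgcr8 iKO nerves. By the test of differences between effects, Cd14 and Fcgr1 differed from Dicer alone, and Lyz1 and Gpnmb from Dgcr8 alone.

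Relative to the mean of log2(CPM + 1) over the listed genes of the same library, the same genes stood apart, as a description with no test. From uncrushed to crushed nerves Fcgr1 moved by 0.88, Ptprc by 1.03, Ncf1 by 1.22 and Plek by 1.64, against -0.65, -0.30, -0.05 and 0.11 in Dicer iKO and -0.21, -0.10, 0.06 and 0.18 in Dgcr8 iKO. Trem2 moved by 0.14 after crush and by 1.34 and 2.09 in the mutants, Ms4a7 by 0.08 against 1.91 and 2.0, and Slamf7 by -1.36 against 1.18 and 1.03. Slamf9 moved by -3.25, -2.47 and -3.91.

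Between the mutants, the fitted log2 fold change was larger in Dgcr8 than in Dicer iKO for 35 of 44 genes, with a median difference of 0.57. The test of this difference called 0 of the 44, as it called 0.0148% of all 13552 genes, and 7 of the 44 had an unadjusted p under 0.05 by edgeR, while DESeq2 called 1, Slamf9. The smallest adjusted p by edgeR was that of Slamf9, with a difference of -1.23 ± 0.20 (adjusted p = 0.0966). Without Dicer control 3 or Dgcr8 control 3 it passed (adjusted p = 0.00521 and 0.0412), and Lyz1 passed without Dicer control 3 (2.22, adjusted p = 0.0188). The Dicer controls spread over a wider range of these genes than the Dgcr8 controls, with summed levels of the 45 genes of 699 to 1602 CPM against 669 to 736 CPM, and the part of this in the difference was not tested.

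Genes of the same pathways outside the 46 moved with them. Of 17 genes of signaling downstream of ITAM receptors, 17 rose against both crush controls (median 2.74 and 2.68), 16 in Dicer iKO (1.83) and 17 in Dgcr8 iKO (2.28). By the same rule, 15.3%, 14.6%, 7.37% and 13.4% of all genes rose in these comparisons. Syk, the kinase recruited by the phosphorylated motif, rose by 2.57 ± 0.15, 2.20 ± 0.34 and 2.28 ± 0.24. The adaptor Fyb rose by 3.92 ± 0.15 after crush, 1.89 ± 0.30 and 2.39 ± 0.18, and its crush effect exceeded both mutant effects (2.02 ± 0.29 and 1.52 ± 0.30, adjusted p = 8.10e-06 and 4.09e-04). Of these 17 genes the crush effect was above the Dicer effect for 8 and below for 1, where 23.6% and 15.1% of all genes were. It was above the Dgcr8 effect for 3 and below for 1, where 22.7% and 14.3% of all genes were.

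Of further genes tied to the NADPH oxidase, the proton channel Hvcn1 rose in each of the 4 comparisons (1.98 ± 0.42 after crush, 3.83 ± 0.32 and 4.59 ± 0.40). The GTPase Rac1, used by most cells, had 0.04, -0.27 and -0.27. Of 23 further macrophage genes, 17 of 22 tested rose against uncrushed nerves, 17 of 22 against contralateral nerves, 12 of 22 in Dicer iKO and 14 of 21 in Dgcr8 iKO, where 15.3%, 14.6%, 7.37% and 13.4% of all genes rose. The transcription factor Maf fell against contralateral nerves (-1.37 ± 0.09) and the scavenger receptor Cd163 fell in Dgcr8 iKO (-2.61 ± 0.29), and both are named here after their values were seen. The galectin Lgals3 rose by 7.11 ± 0.17 after crush against 2.42 ± 0.21 and 2.93 ± 0.28. The protease Ctss rose by 4.67 ± 0.35, 3.78 ± 0.47 and 5.57 ± 0.32, and the complement gene C1qb by 2.47 ± 0.25, 2.62 ± 0.45 and 3.37 ± 0.30. Spp1 (osteopontin) rose after crush (1.15 ± 0.19) and had 0.64 ± 0.14 and -0.37 ± 0.18 in the mutants. For the 22 of these genes tested, the crush effect was above the Dicer effect for 7 and below it for 0, where 23.6% and 15.1% of all genes were. It was above the Dgcr8 effect for 7 and below it for 2, where 22.7% and 14.3% of all genes were.

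Markers of other cells were read beside these changes. T cell markers summed to 3.76 to 6.94 CPM in crushed and 8.03 to 9.62 CPM in uncrushed nerves. They summed to 16.6 to 42.6 CPM in Dicer iKO against 0.802 to 3.30 CPM, and to 30.4 to 38.9 CPM in Dgcr8 iKO against 0.804 to 1.56 CPM. They fell for 2 of 4 tested against uncrushed nerves and passed for 0 of 2 against contralateral nerves, and rose for 2 of 2 and 5 of 5 in the mutants. The 2 in Dicer iKO were Cd4 (19.7 ± 7.76 CPM, SD, n = 3) and Cd28 (10.6 ± 5.37 CPM, SD), both named after their values were seen, whereas Cd3e, Cd3d and Cd3g were at 0.116 ± 0.201, 0.116 ± 0.201 and 0.371 ± 0.350 CPM (SD) there. Macrophages can also express Cd4. Cd3e, Cd3g and Cd5 were at 0 in the Dgcr8 controls. B cell markers summed to 6.65 to 8.93 CPM in crushed and 8.80 to 15 CPM in uncrushed nerves, and to 17.4 to 48.5 CPM in the mutants against 1.09 to 4.45 CPM. They fell for 2 of 3 tested against uncrushed nerves, rose for 1 of 3 against contralateral nerves, and rose for 1 of 1 and 1 of 2 in the mutants, with Pax5 at 0 in Dicer iKO. The part of lymphocytes in the larger mutant effects on shared leukocyte genes was not tested, and Slamf7 and Cd84 are also expressed by lymphocytes.

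Neutrophils also express Clec4d and Clec4e. Neutrophil markers summed to 32.0 to 42.0 CPM in crushed, 28.3 to 38.3 CPM in uncrushed and 20.1 to 28.6 CPM in contralateral nerves. They summed to 12.1 to 21.7 CPM in the mutants against 24.2 to 61.3 CPM in controls, with Ngp, Camp, Elane and Mpo at 0 in Dgcr8 iKO, and Ngp, Camp and Elane also at 0 in its controls. Outside crushed nerves most of each sum was Cxcr2. Its means were 29.9 and 45.2 CPM in the Dicer and Dgcr8 controls and 16.5 and 8.17 CPM in the mutants. The sums there thus mainly show this 1 gene and not the list. Of the 10, 1 of 3 tested rose and 1 fell against uncrushed nerves, 1 of 2 rose against contralateral nerves, 0 of 1 passed in Dicer iKO, and 2 of 3 rose and 1 fell in Dgcr8 iKO. Retnlg (mean ± SD of 15.5 ± 5.38 CPM in crushed and 0.0570 ± 0.0987 CPM in uncrushed nerves) rose and Cxcr2 (mean ± SD of 16.8 ± 1.45 and 31.5 ± 4.73 CPM) fell after crush, and in Dgcr8 iKO Retnlg and Mmp8 rose and Cxcr2 fell, the 3 genes being named after their values were seen. NK cell markers summed to 1.30 to 3.65 CPM in crushed nerves against 1.76 to 2.56 CPM in uncrushed nerves, where 0 were tested. They summed to 2.92 to 4.04 CPM in Dicer iKO against 0.272 to 0.861 CPM, and 1 of 1 tested rose. In Dgcr8 iKO they summed to 4.93 to 5.36 CPM against 0.104 to 7.64 CPM, and 0 of 1 passed. Dendritic cell markers summed to 35.1 to 40.3 CPM in crushed nerves against 49.3 to 53.9 CPM in uncrushed nerves, and to 34.3 to 44.2 CPM in the mutants against 27.8 to 50.1 CPM in controls. Mast cell markers summed to 5.69 to 12.7 CPM in crushed nerves against 5.13 to 40.2 CPM in contralateral nerves, and to 255 to 350 CPM in Dicer iKO and 91.0 to 130 CPM in Dgcr8 iKO against 43.9 to 215 and 16.3 to 56.6 CPM. They fell for 3 of 4 tested against contralateral nerves, passed for 0 of 6 in Dicer iKO and rose for 4 of 5 in Dgcr8 iKO. All 4 proliferation genes rose in every comparison with controls, with sums of 768 to 1157 CPM in crushed nerves against 32.2 to 33.6 CPM in uncrushed nerves. In Dicer and Dgcr8 iKO these sums were 73.3 to 107 and 198 to 293 CPM.

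The 8 markers of myelinating Schwann cells were present in every group. They summed to 2109 to 3219 CPM in crushed nerves against 36383 to 41690 CPM in uncrushed nerves, and to 22357 to 27432 CPM in Dicer iKO and 14600 to 28324 CPM in Dgcr8 iKO against 28045 to 46873 and 42392 to 46191 CPM. Of the 8, 6 fell against uncrushed and 7 against contralateral nerves, 0 in Dicer iKO and 4 in Dgcr8 iKO. A fall of such abundant RNA raises the share of all others in a library, and its part in the changes was not tested. The 45 genes listed in both experiments summed to 1411 to 3318 CPM in crushed nerves against 337 to 370 CPM in uncrushed nerves, and to 6490 to 11679 and 4540 to 11138 CPM in Dicer and Dgcr8 iKO. Fibroblast markers summed to 1957 to 2423 CPM in crushed nerves against 2621 to 2942 CPM in uncrushed nerves, and to 12166 to 13128 and 8680 to 11211 CPM in the mutants against 3798 to 11329 and 4095 to 5180 CPM. Endothelial markers summed to 169 to 210 CPM in crushed nerves against 114 to 143 CPM, and to 158 to 217 CPM in the mutants against 233 to 278 CPM. Adipocyte markers were at most 24.6 CPM in any library.

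In the genome, these genes lie on 17 chromosomes, with 8 on chromosome 1 and 6 on chromosome 6. Fcgr3, Fcgr4, Fcgr2b, Fcer1g, Slamf7, Cd84 and Slamf9 share a stretch of chromosome 1, from Fcgr2b (chr1:170958617-170976547, minus strand) to Slamf9 (chr1:172475358-172478575, plus strand; GENCODE M21, GRCm38). The neighbors did not move alike in sign, since the Fc receptors, Slamf7 (chr1:171632403-171653035) and Cd84 (chr1:171839697-171890718) were higher after crush and Slamf9 lower. On chromosome 6, Clec4n (chr6:123229843-123247021), Clec4d (chr6:123262111-123275265) and Clec4e (chr6:123281789-123289870) are neighbors. Of these 3, Clec4d and Clec4n were called in both mutants, whereas Clec4e, 0 to 5 counts there, was not tested against their controls. By annotation 30 of the 46 genes overlap no other gene.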

How the data were processed

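SNs were profiled in 23 libraries grouped by GEO's labels. One uncrushed library is number 3 by title and 4 by description, and the title was used. The authors quantified Ensembl transcripts (GRCm38) with RSEM and deposited expected counts, not normalized, and TPM, scaled to transcript length and library total. Other deposited columns were not used.

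For each gene the expected counts of its transcripts were added up and then rounded. TMM normalization, filterByExpr (minimum count 10) and quasi-likelihood tests were run in edgeR 4.0.16 (R 4.3.3), with genes called at 2-fold or more and adjusted p of at most 0.05, and differences between effects at adjusted p of at most 0.05 alone. SE is the log2 fold change over the square root of F. CPM use TMM within an experiment. DESeq2 1.42.0, RLE and unscaled totals, other filters and thresholds, a replicate block and single libraries left out were the alternatives. The tests were checked on simulated counts.

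The 46 genes, their roles and all marker lists were chosen with earlier results of these data known. Values in every library are given for the gene of highest TPM in crushed nerves in each role, genes called against both mutants, the transcription factors and exceptions. Clec4d, Clec4e and Clec7a fall under the last. Equal replicate numbers are not stated to mark 1 animal, and the correlation of same-numbered libraries was -0.0941 to 0.177 for crushed and contralateral nerves, so they were not paired. All pairs of libraries of a group differed beyond counting noise. Where labels do not name separate animals, p-values measure only the spread between libraries. Some genes of the marker and pathway lists are not reported here.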

Additional observations from a re-analysis of the deposited data

Results flagged for a closer look

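In groups of 4 libraries, 1 library stood apart from the other 3 for 5 genes and 6 values, by Dixon's test at the 95% level. Over the 92 combinations of gene and group, chance alone gives about 1 in 20. Crushed 1 was low for Fcgr3 (45.8 CPM, the nearest library at 86.8), Clec4n (2.63 CPM, nearest 3.50) and Aif1 (10.2 CPM, nearest 16.7). In contralateral nerves, library 1 was high for Cd68 (6.98 CPM, nearest 4.36) and library 2 low for Aif1 (1.24 CPM, nearest 1.86). Library 3 was flagged for Clec4d (0.0979 CPM, the others at 0), but this is 1 count, under the 3 counts taken here as the smallest level above none. With the others tied at 0, the test flags any value above 0, so this flag says nothing of the library.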

How the results depend on the processing

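With 1 library left out at a time, 39 to 44 genes rose against uncrushed nerves, 42 to 44 against contralateral nerves, 30 to 42 in Dicer iKO and 40 to 42 in Dgcr8 iKO, while 1, 1, 0 and 1 fell. The calls of 41 of 44 genes (uncrushed), 43 of 43 (contralateral), 30 of 41 (Dicer) and 41 of 41 (Dgcr8) held under every alternative run. The crush effect minus the Dicer effect gave 2 to 8 genes above 0 (2 without uncrushed 1, 8 without crushed 1) and 5 to 9 below, and minus the Dgcr8 effect 1 to 3 above and 6 to 14 below (6 without Dgcr8 iKO 3, 14 without Dgcr8 iKO 2). At adjusted p of at most 0.01, 3 genes in place of 6 were above 0 against Dicer and 5 in place of 11 below 0 against Dgcr8. With no filter on low counts, 3 in place of 1 were above 0 against Dgcr8, and with contralateral nerves as the control 2. The Dgcr8 minus Dicer effect called 1 gene below 0 by DESeq2 and with no filter, 0 or 1 in each direction with 1 library left out. The cause of these shifts was not tested.

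The difference of Irf5 from Dicer, 0.07, changed sign with RLE (-0.09), at least 10 counts in every sample (-0.15), the replicate block (-0.01) and DESeq2 (-0.10), and lay between -0.18 and 0.33 with 1 library left out. Its difference from Dgcr8 changed sign with no filter (0.06) and with contralateral nerves (0.57), and lay between -0.34 and 0.15 with 1 library left out. Those of Spi1 then lay between -0.00 and 1.17 (Dicer) and between -0.63 and 0.15 (Dgcr8, 0.13 with contralateral nerves), and that of Slamf9 from Dgcr8 between -0.38 and 0.13 (0.07 with no filter). None of these was called before or after the change of sign, except Slamf9 with contralateral nerves (-0.70, adjusted p = 0.0325).

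With the replicate block, Dicer iKO kept 30 calls in place of 41 and Dgcr8 against crush 9 in place of 11 below 0. No pair of groups had every same-number correlation above 0.1. A pseudocount of 0.5 in place of 1 moved no mean of the listed genes by more than the spread between libraries. Depth limits Clec4d, Clec4e, Clec4n, Fcgr4 and Lyz1, which lie near the floor in some groups.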
